A study of Mus musculus with 4 samples.

Results

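The Schlafen family was examined in splenic CD4+ T cells as 7 genes, *Slfn1*, *Slfn2*, *Slfn3*, *Slfn4*, *Slfn5*, *Slfn8* and *Slfn9*, matched by symbol among the 55367 gene symbols of each deposited table. RNA was sequenced from sorted splenic CD4+ T cells of C57BL/6 mice, 2 libraries labelled WT and 2 labelled *Satb1* conditional knockout (cKO). SATB1 is a nuclear protein that folds chromatin and represses or activates genes in T cells. Per the study's methods, the cKO mice were *Satb1* F/F; *Thpok-cre*, in which Cre is active from commitment to the CD4 lineage onwards, so conventional CD4+ T cells and regulatory T (Treg) cells are both targeted. The cells received no treatment, and the labels give neither the sex nor the age of a mouse nor the alleles that the WT mice carried. The study's methods give an average age range for its mice and call them mixed in sex, without naming either for a library. The study describes the libraries of a genotype as biological replicates, and the labels do not name the mouse behind each.

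The genes were listed by name, but the family was selected on its measured CPM values in these libraries, the cKO-against-WT differences included. Its members' levels and differences between the genotypes are therefore given as a description, and nothing is tested with them. Levels are in CPM, a gene's read count scaled to a library of 1e+06 gene counts by trimmed mean of M values (TMM) factors, and differences are log2 fold changes (cKO minus WT) from an edgeR quasi-likelihood fit to the whole table.

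Schlafen proteins are found in mammals and share a core domain that in several members binds and cuts RNA. The short forms consist of little more than this core, the intermediate forms carry an added linker region, and the long forms end in a helicase-like domain and are largely nuclear. Many Schlafen genes are induced by type I interferon, and in T cells the family is known for a link to quiescence, the resting state from which naive cells are activated. Loss of SLFN2 function makes T cells leave quiescence and die, and SLFN2 shields transfer RNAs from cleavage during T cell activation.

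The 7 genes lie in a single stretch of 263.8 kb on chromosome 11 of build GRCm38 (mm10), at chr11:82951349-83215154. From the lower coordinate upwards, *Slfn5* lies at chr11:82951349-82964840 on the plus strand, *Slfn9* at chr11:82978390-82991830 and *Slfn8* at chr11:83002158-83020810 on the minus strand. *Slfn2* (chr11:83065112-83070678), *Slfn1* (chr11:83116849-83122670), *Slfn4* (chr11:83175186-83190216) and *Slfn3* (chr11:83191330-83215154) follow on the plus strand. All are annotated as protein coding. Their longest annotated coding sequences measure 1011 bases for *Slfn1* and 1134 for *Slfn2*, the short forms, 1920 for *Slfn3* and 1806 for *Slfn4*, the intermediate forms, and 2652 for *Slfn5* and 2730 for both *Slfn8* and *Slfn9*, the long forms.

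*Slfn8* and *Slfn9*, the adjacent long-form genes, are near copies of each other. Over 2730 aligned coding bases they were identical at 2531 (92.7%), the highest identity of any pair of members, followed by *Slfn3* and *Slfn4* at 92.1%. *Slfn5* was 60.6% identical to *Slfn8*. The longest coding run that *Slfn8* and *Slfn9* share without a mismatch is 139 bases, at coding positions 2540 to 2678 of *Slfn8*, and is shown because a 50-base read that lies within it cannot be assigned to either gene.
Slfn8 and Slfn9 shared coding run: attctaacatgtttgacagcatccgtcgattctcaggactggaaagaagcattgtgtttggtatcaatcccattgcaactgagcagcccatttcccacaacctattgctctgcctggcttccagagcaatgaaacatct

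Such stretches limit the counts, since reads that align to more than 1 place do not enter them. Of the distinct 50-base windows of the annotated *Slfn8* transcripts, 9.30% (389 of 4184) occurred in *Slfn9* as well and 14.6% in any other gene. For *Slfn9* these shares were 6.52% and 11.9%. Both genes shared more windows with the pseudogene *Slfn10-ps* than with each other, 10.1% for *Slfn8* and 8.10% for *Slfn9*. Windows found in another gene made up 16.0% for *Slfn3*, 11.3% for *Slfn4*, 11.1% for *Slfn5*, 4.27% for *Slfn2* and 0.606% for *Slfn1*. Most windows of *Slfn8* and *Slfn9* were thus found in no other gene, and the shared stretches are undercounted in both.

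*Slfn5*, *Slfn8* and *Slfn9* also share a letter pattern upstream. The core of the interferon-stimulated response element (ISRE), a site found upstream of many interferon-induced genes, was searched as GAAANNGAAA on both strands in the RefSeq window from 250 bases before to 50 bases after each start (GRCm38.p6), which was present for all 7 members. It was found for these 3 of the 7 members, not in the window of the long form *Slfn14*, and in 3.43% of 32817 mouse promoters of this length. The gamma-activated site TTCNNNGAA, also searched on both strands, was in none of the members' windows and in 8.29% of all promoters. The 250 bases before each start are printed with the ISRE match in capitals, at chr11:82991831-82992080 (minus strand) for *Slfn9*, chr11:83020811-83021060 (minus strand) for *Slfn8* and chr11:82951852-82952101 (plus strand) for *Slfn5*, because these are the 3 members with the widest differences between the genotypes.
Slfn9: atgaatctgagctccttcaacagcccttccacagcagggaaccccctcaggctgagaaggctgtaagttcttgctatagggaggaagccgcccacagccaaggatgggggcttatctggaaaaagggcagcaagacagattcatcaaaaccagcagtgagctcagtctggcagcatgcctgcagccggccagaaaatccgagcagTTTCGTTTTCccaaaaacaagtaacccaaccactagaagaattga
Slfn8: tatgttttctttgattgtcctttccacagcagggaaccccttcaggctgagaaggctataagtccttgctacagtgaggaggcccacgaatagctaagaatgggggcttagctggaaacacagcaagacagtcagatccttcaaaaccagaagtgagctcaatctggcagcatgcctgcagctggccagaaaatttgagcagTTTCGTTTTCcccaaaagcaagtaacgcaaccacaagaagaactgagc
Slfn5: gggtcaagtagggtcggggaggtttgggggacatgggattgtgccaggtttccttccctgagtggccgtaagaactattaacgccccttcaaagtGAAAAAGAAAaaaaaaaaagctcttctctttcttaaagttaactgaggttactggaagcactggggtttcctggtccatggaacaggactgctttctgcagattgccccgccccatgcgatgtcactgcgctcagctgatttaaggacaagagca

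The match TTTCGTTTTC, which reads as the ISRE core on the other strand, begins 45 bases before the start of *Slfn9* and 48 bases before that of *Slfn8*, and the *Slfn5* match GAAAAAGAAA begins 155 bases before its RefSeq start, which lies inside the GENCODE span of *Slfn5* given above. The *Slfn8* and *Slfn9* windows were identical at 246 of 295 aligned bases (83.4%), against at most 58.1% for any other pair of members. A second *Slfn8* start listed in RefSeq holds the same match, 136 bases before it. A letter match is not a measured site, and no binding was measured here.

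**Figure D1:**
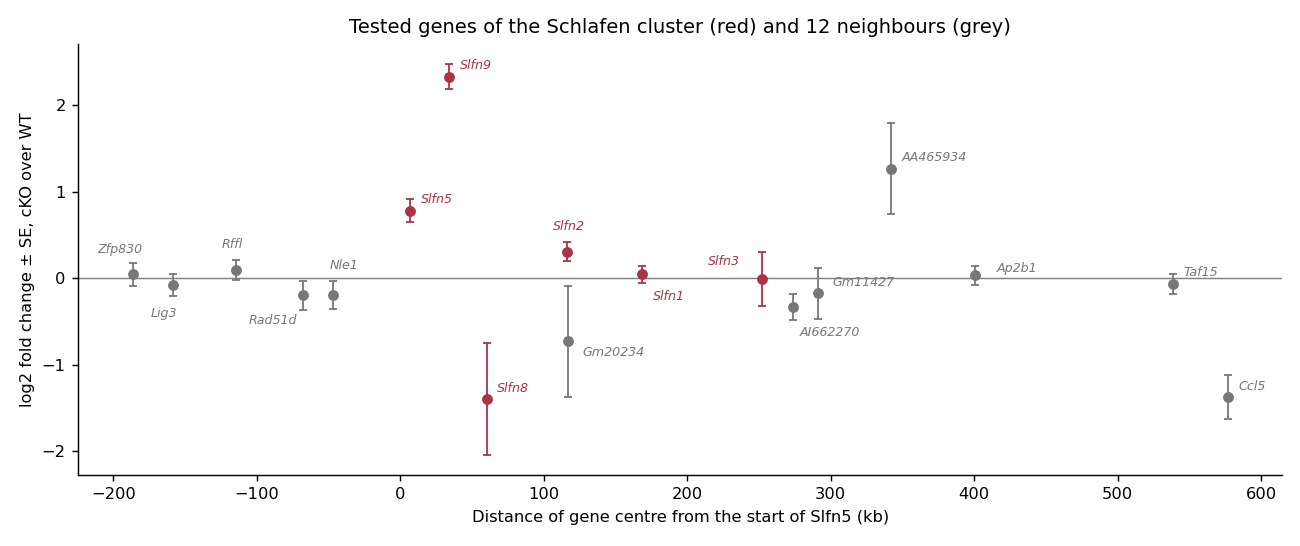
Map of the Schlafen cluster and its neighbours on mouse chromosome 11, with the distance of each gene centre from the start of *Slfn5* in kb on the x axis and its log2 fold change (cKO minus WT) with SE on the y axis, members in red and 12 neighbours in grey. *Slfn9* lies highest at 2.33, and *Slfn8*, the next gene, lies lowest at -1.40.

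The 4 libraries held 4495902 to 6555699 gene counts, and 59.4% to 64.5% of the reads that aligned to a single place lay outside annotated features. Of the 12403 genes that passed the low-count filter, 533 (4.30%) were called at an adjusted p under 0.05, 291 higher and 242 lower in the cKO libraries. All 9 CD4+ T cell markers examined were detected in the libraries, with a summed level of 6066 to 6116 CPM in WT and 5963 to 6718 CPM in cKO. *Satb1* itself did not separate the labels, at 865 and 979 CPM in WT and 941 and 844 CPM in the libraries labelled cKO (log2 fold change -0.05, SE 0.12; edgeR adjusted p = 0.877). A count over the whole gene does not show whether the floxed exons were present. *Foxp3*, which normally marks Treg cells, stood at 141 and 120 CPM in WT and 404 and 545 CPM in cKO. The paper reports that conventional CD4+ T cells without SATB1 also express *Foxp3*. The X-inactivation transcript *Xist* was at 830 and 945 CPM in WT and 1.71 and 1.27 CPM in cKO, while the Y-linked *Ddx3y* was read 0 times in either WT library, 525 times in cKO 1 and 597 times in cKO 2. This sex-linked split runs along the genotype labels, so sex and genotype cannot be told apart for any gene below.

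Summed over the 7 genes, Schlafen transcripts reached 1417 and 1451 CPM in WT 1 and WT 2, and 1624 and 1822 CPM in cKO 1 and cKO 2. Both cKO libraries were above both WT libraries, with 1434 ± 24.4 CPM (SD, n = 2) in WT and 1723 ± 140 CPM (SD, n = 2) in cKO. The family made up 0.142% and 0.145% of gene counts in WT and 0.159% and 0.186% in cKO. Without *Slfn2*, the member with the most counts, the sums were 917 and 933 CPM in WT and 961 and 1226 CPM in cKO. In bulk RNA, fewer cells of a type and less RNA per cell cannot be told apart.

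The make-up of the family sum differed more than its size. *Slfn1* and *Slfn2* together with *Slfn5* supplied most of it in every library. *Slfn8* made up 10.7% and 10.8% of family counts in WT, 0.689% in cKO 1 and 5.89% in cKO 2. *Slfn9* made up 0.914% and 0.876% in WT and 4.24% and 3.32% in cKO. *Slfn5* supplied 19.2% of family counts in each WT library and 25.1% and 29.6% in the cKO libraries, while *Slfn1* supplied 33.3% and 32.6% of family counts in WT and 28.7% and 27.8% in cKO.

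**Figure D2:**
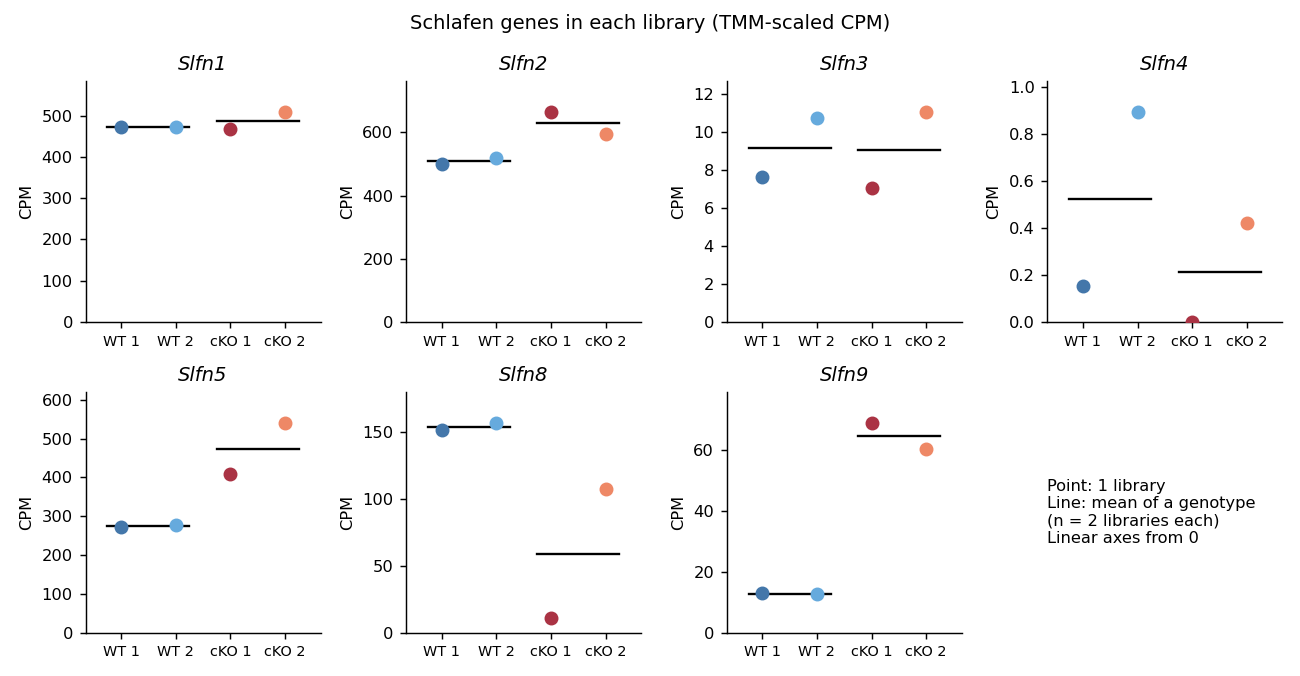
Level of each Schlafen member in each library, in CPM on linear axes that start at 0, with 1 point per library and a line at the mean of each genotype (n = 2). *Slfn9* is higher in both cKO libraries (68.9 and 60.5 CPM against 12.9 and 12.7 CPM), and the *Slfn8* points of cKO 1 (11.2 CPM) and cKO 2 (107 CPM) lie far apart.

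Levels of different genes were compared per kb of exonic length, on which scale *Slfn2* was the most abundant member in WT at 300.3 and 311 CPM per kb. *Slfn1* followed at 253 and 254, *Slfn5* at 43.1 and 44.0 and *Slfn8* at 37.1 and 38.3 CPM per kb. *Slfn3* at 2.23 and 3.14, *Slfn9* at 2.17 and 2.13 and *Slfn4* at 0.0384 and 0.225 CPM per kb were the lowest. No neighbours in this WT order overlapped in their libraries, although *Slfn3* in WT 1 and *Slfn9* in WT 1 lay close, at 2.23 and 2.17.

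In the cKO libraries *Slfn2* stood at 399 and 358 CPM per kb, *Slfn1* at 250.3 and 272, and *Slfn5* at 64.4 and 85.3. *Slfn8* at 2.74 and 26.2 CPM per kb and *Slfn9* at 11.5 and 10.1 CPM per kb overlapped, so these neighbours do not differ beyond their spread. *Slfn9* lay above *Slfn3*, which stood at 2.06 and 3.23 CPM per kb, a change of place from WT. *Slfn4* remained last, at 0 and 0.107 CPM per kb. The order by mean in each genotype was the same when each length was reduced to the share of windows found in no other gene.

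**Figure D3:**
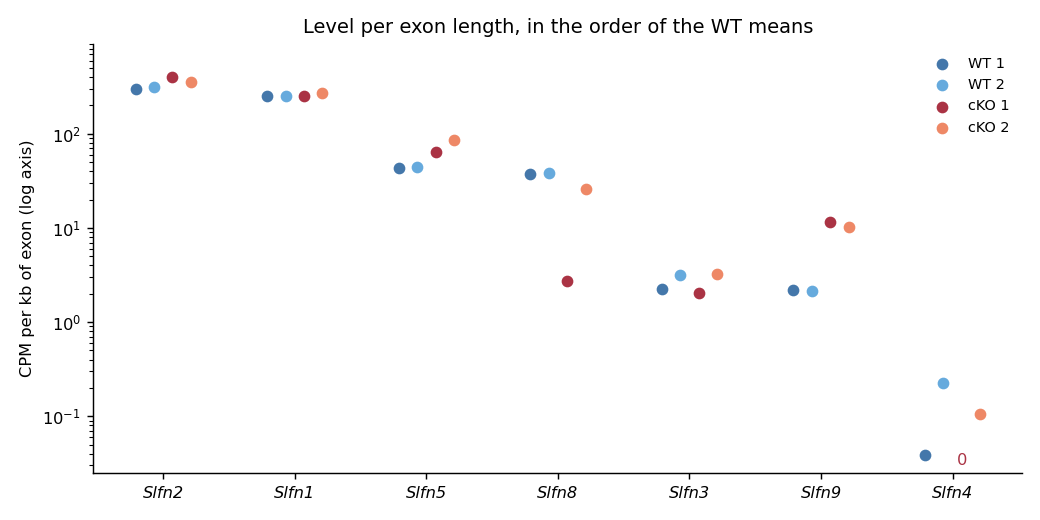
Level of each member per kb of exonic length (CPM per kb, log axis), in the order of the WT means, with 1 point per library and a 0 where none was counted. *Slfn2* and *Slfn1* lie at 250.3 CPM per kb or above in every library, and *Slfn9* passes *Slfn3* in the cKO libraries.

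Of the 6 members that passed the low-count filter, 2 were called (*Slfn5* and *Slfn9*, both higher in cKO), where 4.30% of all tested genes were called in either direction and 2.35% as higher. The libraries of the genotypes did not overlap for 4 of the 6 (*Slfn2*, *Slfn5*, *Slfn8* and *Slfn9*), where 50.3% of all tested genes did not overlap. *Slfn4* was not tested. Since this contrast chose the family, nothing is read from these counts. The member just inside the threshold was *Slfn5* and the nearest outside it *Slfn2*, with log2 fold changes of 0.78 (SE 0.14) and 0.31 (SE 0.11).

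Among the short forms, *Slfn1*, which slows thymocyte growth when expressed ectopically, was read 3098 and 2121 times in WT and 2459 and 2397 times in cKO. This equals 472 and 473 CPM in WT and 467 and 507 CPM in cKO, and the genotypes overlapped (log2 fold change 0.04, SE 0.10). *Slfn2*, the member needed for T cell quiescence, stood at 500 and 518 CPM in WT and 663 and 596 CPM in cKO, from 3281 and 2323 counts in WT and 3495 and 2816 in cKO. Both cKO libraries lay above both WT libraries, by 1.24-fold in the fit (log2 fold change 0.31, SE 0.11). *Slfn2* was not called with all 4 libraries and was called when cKO 2 was left out, at 0.38, a fit that called 13.8% of all tested genes with cKO 1 as the lone cKO library. The share of *Slfn1* in the summed *Slfn1* and *Slfn2* counts was 48.6% and 47.7% in WT, 41.3% in cKO 1 and 46.0% in cKO 2.

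The intermediate forms were scarce. *Slfn3* had 50 and 48 counts in WT and 37 and 52 in cKO, or 7.61 and 10.7 CPM in WT and 7.02 and 11.0 CPM in cKO. The cKO libraries enclosed the WT libraries, with a log2 fold change of -0.01 (SE 0.31). *Slfn4*, known mainly from myeloid cells, had 1 and 4 counts in WT and 0 and 2 counts in cKO. With a floor of 3 counts (0.458, 0.667, 0.558 and 0.648 CPM in WT 1, WT 2, cKO 1 and cKO 2), it exceeded the floor only in WT 2, and no difference was detectable at this depth.

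Of the long forms, *Slfn5* is an interferon-induced nuclear member. It was read 1790 and 1248 times in WT and 2148 and 2549 times in cKO, or 273 and 278 CPM in WT and 408 and 539 CPM in cKO. Both cKO libraries were above both WT libraries, at 148% and 196% of the WT mean. The fitted difference was 1.72-fold (log2 fold change 0.78, SE 0.14). *Slfn5* was not called when WT 2 was left out, at a log2 fold change of 0.79, in a fit that called 1.39% of all tested genes.

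*Slfn9* had the largest fitted difference of the members with all 4 libraries, though not without cKO 2, when *Slfn8* was at -3.78. It had 85 and 57 counts in WT and 363 and 286 counts in cKO, or 12.9 and 12.7 CPM in WT and 68.9 and 60.5 CPM in cKO. The 2 libraries of each genotype lay close together, and the cKO libraries stood at 537% and 472% of the WT mean. The fitted difference was 5.03-fold (log2 fold change 2.33, SE 0.15), which ranked 46 from the highest among the 12403 tested genes, and it was 2.23 to 2.42 when each library was left out in turn.

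*Slfn8*, a long form whose transgenic expression reduces T cell proliferation, went the other way, and unevenly. It had 996 and 703 counts in WT, 59 in cKO 1 and 507 in cKO 2, or 152 and 157 CPM in WT, 11.2 CPM in cKO 1 and 107 CPM in cKO 2. Both cKO libraries were below both WT libraries, cKO 1 at 7.26% and cKO 2 at 69.6% of the WT mean. The fit gave a log2 fold change of -1.40 (SE 0.65), which was not called. The value was -0.52 without cKO 1 (11.5% of all tested genes called), -3.78 without cKO 2 (13.8% called) and -1.41 without WT 1 (3.75% called), and *Slfn8* was called in each of these 3 fits. Without WT 2 it was -1.37 and not called (1.39% called). Where a single library of a genotype remained, it was assumed to vary like the libraries of the other genotype, which alone gave the spread.

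The gap between the 2 cKO libraries was 9.59-fold for *Slfn8*, against 1.03-fold between the WT libraries. On a log2 scale with 0.5 CPM added to each library, the cKO gap was 3.20, and 6 of the 12403 tested genes, *Slfn8* included, had a gap at least as wide. The other members' gaps between the cKO libraries were 1.09-fold for *Slfn1*, 1.11-fold for *Slfn2*, 1.14-fold for *Slfn9*, 1.32-fold for *Slfn5* and 1.57-fold for *Slfn3*. The genes with wider gaps, named after their values were seen, were *Hbb-bt*, *Hbb-bs*, *Hba-a2* and *Slc4a1*, which are red cell genes, and *St6galnac2*, a sialyltransferase gene. *St6galnac2* stood at 4.57 and 5.13 CPM in WT, 171 CPM in cKO 1 and 3.60 CPM in cKO 2, with cKO 1 the library apart as for *Slfn8*. *Hbb-bt* was at 37.6 and 68.9 CPM in WT, 0.949 CPM in cKO 1 and 92.1 CPM in cKO 2.

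**Figure D4:**
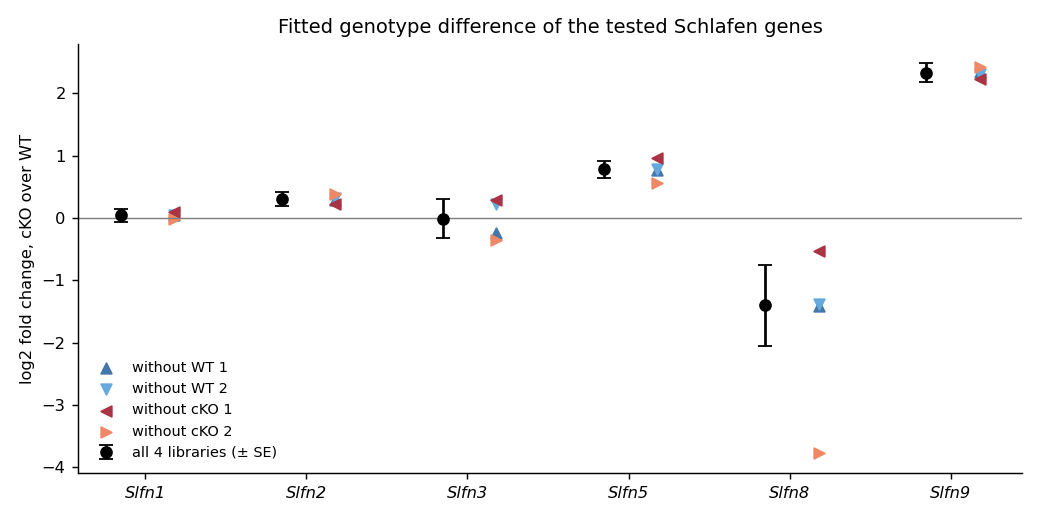
Log2 fold change (cKO minus WT) of the 6 tested members with all 4 libraries (black, error bar SE) and with each library left out (coloured triangles). *Slfn9* (2.33) and *Slfn5* (0.78) lie above 0, *Slfn8* (-1.40) lies below with the widest SE (0.65), and *Slfn1* and *Slfn3* lie at 0.04 and -0.01.

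Taken as a pair, *Slfn8* and *Slfn9* took different shares of their joint counts in each cKO library than in WT. *Slfn9* supplied 7.86% of their joint counts in WT 1 (95% exact Clopper-Pearson interval 6.33% to 9.63%) and 7.50% in WT 2 (5.73% to 9.61%). Its share was 86.0% in cKO 1 (82.3% to 89.2%) and 36.1% in cKO 2 (32.7% to 39.5%). The intervals treat each read as independent and leave out variation between mice and libraries. PCR copies of a molecule are counted as separate reads when no molecular identifiers are used. The intervals may therefore be too narrow even for counting error.

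The joint level of the pair was 164.6 and 169.6 CPM in WT, 80.1 CPM in cKO 1 and 168 CPM in cKO 2. Per kb of exonic length the joint level was 39.2 and 40.5 CPM per kb in WT, 14.3 in cKO 1 and 36.4 in cKO 2. The level in cKO 1 was thus below both WT libraries on either scale, and that in cKO 2 lay between them in CPM and below them per kb. With the 2 genes counted as 1, the log2 fold change was -0.44 (SE 0.27). The gain of *Slfn9* over WT was alike in both cKO libraries and the deficit of *Slfn8* was not. Whether reads of 1 gene were placed on the other was not tested, because aligned reads were not used here.

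**Figure D5:**
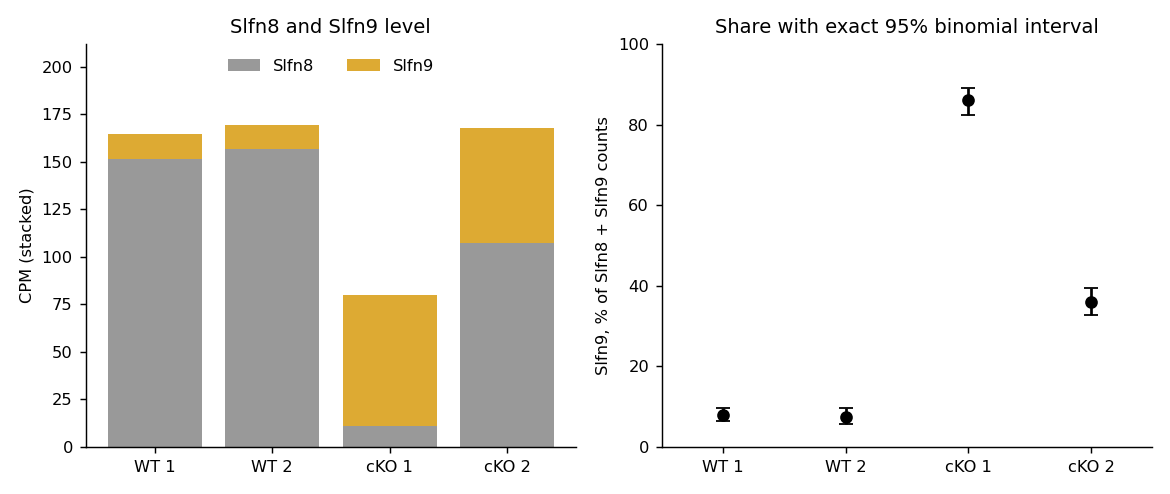
Levels of *Slfn8* and *Slfn9* in each library as stacked bars (CPM), beside the share of *Slfn9* in their joint counts (percent) with 95% exact Clopper-Pearson intervals. The share is near 7.86% in both WT libraries, 86.0% in cKO 1 and 36.1% in cKO 2.

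Other genes of the tables with a Schlafen symbol were read in the same way. *Slfn5os*, an antisense transcript on the minus strand that overlaps *Slfn5* over 559 exonic bases, had 42.5 and 46.4 CPM in WT and 58.6 and 96.3 CPM in cKO (log2 fold change 0.80, SE 0.21; edgeR adjusted p = 0.0744), and was not called. Its share of the joint *Slfn5os* and *Slfn5* counts was 13.5% and 14.3% in WT and 12.6% and 15.1% in cKO. The strand setting of the counting is not stated, and without strand, reads within the 559 shared exonic bases cannot be assigned to either gene. Of the distinct 50-base windows, 45.5% of those of *Slfn5os* and 7.38% of those of *Slfn5* were shared between them. The pseudogene *Slfn10-ps* lies next to *Slfn8* and shares 423 of its 50-base windows with *Slfn8* and 483 with *Slfn9*. It had 108 and 94 counts in WT and 75 and 63 counts in cKO (log2 fold change -0.43, SE 0.21; edgeR adjusted p = 0.307). *Slfn14*, the remaining long form, had 0 and 1 counts in WT and 0 and 2 in cKO, and the Schlafen-like gene *Slfnl1* had 2 and 0 counts in WT and 1 and 1 in cKO, all at or under the floor.

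Genes around the cluster were examined for the same differences. Of 57 other annotated genes within 500 kb, 13 were tested and 1 was called, where 4.30% of all tested genes were. This was *Ccl5*, the gene of a T cell and NK cell chemokine, 310.6 kb away. *Ccl5* was at 59.1 and 42.4 CPM in WT and 14.4 and 25.2 CPM in cKO, and fell by 1.38 on the log2 scale (SE 0.25; edgeR adjusted p = 0.0206). NK cell markers had a lower sum beside it, at 41.4 and 39.7 CPM in WT and 11.0 and 13.5 CPM in cKO over 4 markers, of which 1 had a higher mean in cKO, 3 were tested and 2 called lower, and *Ncr1* was at 0 in a library. The part of these cells in the *Ccl5* value was not tested.

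Of the 11 neighbours tested within 200 kb, edgeR and DESeq2 each called 0, and 1 had an unadjusted edgeR p under 0.05, as had 19.1% of all tested genes. *Gm20234*, inside the cluster, had 22 and 17 counts in WT, 3 in cKO 1 and 18 in cKO 2 (log2 fold change -0.73, SE 0.64; edgeR adjusted p = 0.593). Its low library was the same as that of *Slfn8*, but the 3 counts there equal the floor. *Slfn2*, whose span *Gm20234* overlaps on the opposite strand, was highest in that library, at 663 CPM. *AA465934*, 76.5 kb away, had 15 and 14 counts in WT, 50 in cKO 1 and 15 in cKO 2 (log2 fold change 1.27, SE 0.53; edgeR adjusted p = 0.235). With cKO 2 left out, *Gm20234* and *AA465934* were called alongside *Ccl5*, in a fit that called 13.8% of all tested genes and took its spread from the WT libraries alone. *AI662270*, 8.42 kb away, was at 37.9 and 35.0 CPM in WT and 26.4 and 32.0 CPM in cKO (edgeR adjusted p = 0.285).

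Interferon-stimulated genes, the class to which many Schlafen genes belong, were examined as a group. Of 40 such genes listed, 39 were tested and 1 (2.56%) was called, against 4.30% of all tested genes, and the median log2 fold change was -0.02 against -0.0015 over all genes. The gene called was *Ly6a*, which encodes the surface protein Sca-1, at 62.9 and 49.5 CPM in WT and 96.0 and 117 CPM in cKO (log2 fold change 0.91, SE 0.15; edgeR adjusted p = 0.0128). Among those not called, the widest differences were 1.35 for *Oas1a* (edgeR adjusted p = 0.103), 0.65 for *Xaf1* (adjusted p = 0.288), -0.49 for *Oasl2* (adjusted p = 0.233) and 0.46 for *Ifit3b* (adjusted p = 0.611). *Oas1a* encodes a sensor of double-stranded RNA, and *Oasl2* a relative of it.

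The 2 cKO libraries differed in these genes, as they did in *Slfn8*. The list summed to 3899 and 3783 CPM in WT, 3085 CPM in cKO 1 and 4580 CPM in cKO 2. In cKO 1, 30 of the 39 genes (76.9%) lay below both WT libraries, where 40.5% of all tested genes did. In cKO 2, 32 of the 39 (82.1%) lay above both WT libraries, where 39.4% of all tested genes did. The level in cKO 2 exceeded that in cKO 1 for 37 of the 39 genes (94.9%), and for 48.9% of all tested genes. With cKO 1 left out, 9 genes of the list were called, all higher, in a fit that called 11.5% of all tested genes. With cKO 2 left out, 17 were called, 15 of them lower and 2 higher, in a fit that called 13.8%. In both fits the lone cKO library was assumed to vary like the WT libraries.

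Set beside that order, *Slfn5* and *Slfn8* were higher in cKO 2 than in cKO 1, as were *Slfn1* and *Slfn3*. *Slfn2* and *Slfn9* were lower in cKO 2 than in cKO 1. *Slfn9* was above both WT libraries in cKO 1, where most of the interferon list was below them. *Slfn8* was below both WT libraries in cKO 2, where most of the list was above them.

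Receptors and transducers of interferon signals were tested as a further group. Of 9 listed genes 8 were tested, all with a log2 fold change above 0 and 7 with no overlap of the genotypes (50.3% of all tested genes), and 1 was called (4.30% of all tested genes), *Ifngr1*, the ligand-binding chain of the type II interferon receptor. *Ifngr1* was at 233 and 197 CPM in WT and 517 and 479 CPM in cKO, and rose by a log2 fold change of 1.21 (SE 0.11; edgeR adjusted p = 0.000889). Its partner chain *Ifngr2* had a log2 fold change of 0.28 (edgeR adjusted p = 0.296). The type I receptor chains *Ifnar1* and *Ifnar2* had log2 fold changes of 0.04 and 0.24 (edgeR adjusted p = 0.884 and 0.276), and the kinase genes *Jak1* and *Tyk2* of 0.14 and 0.26 (edgeR adjusted p = 0.577 and 0.261). The transcription factor genes *Irf1* and *Irf2* had log2 fold changes of 0.19 and 0.27 (edgeR adjusted p = 0.386 and 0.194). *Ifng* did not pass the filter.

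Genes known to hold T cells in quiescence were examined because of the role of *Slfn2*. Of 24 listed genes 23 were tested and 1 (4.35%) was called, near the 4.30% of all tested genes, with a median log2 fold change of 0.07. This was *Il7r*, the receptor for the survival cytokine IL-7, at 364 and 484 CPM in WT and 1048 and 694 CPM in cKO (log2 fold change 1.04, SE 0.20; edgeR adjusted p = 0.0257). DESeq2 called none of the 23. The transcription factor genes *Egr2*, *Lef1* and *Nfatc2* and the anergy-associated *Ndrg1* had log2 fold changes of 0.44, -0.32, 0.27 and -0.29, and were not called (edgeR adjusted p = 0.255, 0.315, 0.185 and 0.409).

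Markers of other cells that a splenic sort can hold differed between the genotype labels in their sums. Myeloid markers summed to 30.6 and 39.9 CPM in WT, 112 CPM in cKO 1 and 65.4 CPM in cKO 2, with a higher mean in cKO for 10 of 11 markers and 4 of 9 tested markers called, where 4.30% of all tested genes were, and *Cd14*, *S100a8*, *S100a9* and *Ltf* were at 0 in at least 1 library. *Slfn4*, the myeloid member, had 1 and 4 counts in WT and 0 and 2 counts in cKO, near the floor of 3 counts. At this depth *Slfn4* cannot be set beside the myeloid sums. B cell markers summed to 13.1 and 14.5 CPM in WT, 54.5 CPM in cKO 1 and 23.5 CPM in cKO 2, with all 7 higher in mean and 1 of 3 tested markers called. Treg markers summed to 374 and 294 CPM in WT and 692 and 912 CPM in cKO, with all 4 higher in mean and 2 of 4 tested markers called. *Foxp3* is among them, at 141 and 120 CPM in WT and 404 and 545 CPM in cKO. The paper reports *Foxp3* as derepressed in conventional CD4+ T cells without SATB1, so this sum does not measure Treg cells alone. CD8 markers summed to 47.5 and 58.2 CPM in WT and 34.2 and 26.7 CPM in cKO, with 1 of 2 tested markers called lower. The part of these cells in the Schlafen values was not tested.

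The genes whose 4-library pattern was nearest to that of *Slfn9* were *Coro2a*, *Plin2* and *Hsph1*, at Euclidean distances of 0.339, 0.576 and 0.607 in centred log2 CPM among 9122 candidates. *Coro2a* was at 49.0 and 35.0 CPM in WT and 200.4 and 188 CPM in cKO. Nearest to the summed Schlafen level were *Slk*, *Acp2* and *Hspa5*, at distances of 0.0285, 0.0351 and 0.0376. With 4 libraries that share their genotype split, such likeness is a description only.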

How the data were processed

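Splenic CD4+ T cells were profiled by RNA-seq with 50-base reads (NEBNext Ultra RNA kit, HiSeq2500), 1 library per sample. Per the submitters' notes, the authors aligned reads to mm10 with HISAT2 2.1.0 and counted them with HTSeq 0.11.1. The deposited values are raw read counts per gene symbol, and the annotation and strand setting are not given in the sources used here. HTSeq summary lines were 66.8% to 70.5% of all reads and were kept out of library sizes. Depth is given in the report, and 0 columns of other samples were present.

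From these counts, CPM, TMM factors (0.981 to 1.02) and quasi-likelihood F tests were computed with edgeR 4.0.16 and limma 3.58.1 in R 4.3.3, with filterByExpr, genotype as the only term, two-sided, and Benjamini-Hochberg adjustment over 12403 genes. The code was tested on simulated counts. An SE is the absolute log2 fold change over the square root of F. Alternatives, including DESeq2 1.42.0, are in the closing section. Plots used Python 3.11.15 and matplotlib 3.10.9, and sequences were aligned with Biopython 1.88.

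Positions, exonic lengths and coding sequences came from GENCODE M21 (GRCm38), which held 53292 of the 55367 symbols, and promoters from RefSeq. The members and the gene lists were chosen with earlier results of these data known. Named were all members, other *Slfn* symbols, the called and at most 4 uncalled genes with the largest changes of the neighbours and of the interferon-stimulated and quiescence lists, the tested genes of the interferon receptor and signalling list, and the 3 most similar genes with a mean of at least 10 CPM. Of the tested neighbours, 1 is not reported here by name. Groups came from the labels alone. The 2 libraries of a genotype differed by more than counting noise (chi-square per degree of freedom 2.83 in WT and 6.68 in cKO) and count as 2.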

Additional observations from a re-analysis of the deposited data

How the results depend on the processing

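Of 78 member log2 fold changes under the alternatives (refits, and the fit with all 4 libraries read at 0.01), 67 kept their direction and their side of the threshold. *Slfn9* did so in all 13 of its alternatives. Leaving out each library in turn gave -0.016 to 0.10 for *Slfn1* (-0.016 without cKO 2), 0.23 to 0.38 for *Slfn2*, -0.35 to 0.29 for *Slfn3* (0.23 without WT 2, 0.29 without cKO 1), 0.57 to 0.97 for *Slfn5*, -3.78 to -0.52 for *Slfn8* and 2.23 to 2.42 for *Slfn9*. *Slfn5* (0.78) was not called at an adjusted p under 0.01. *Slfn8* was called with no low-count filter (-1.40). The cause was not tested.

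The count of called members ran from 1 (without WT 2, when 1.39% of all genes were called) to 4 (without cKO 2, 13.8%), and was 1 at 0.01 (1.23%). The 533 genes called became 1367 with no low-count filter, 1096 with the likelihood ratio test, 153 at 0.01, and 180 (without WT 2) to 1783 (without cKO 2) with a library left out, 1469 without cKO 1.

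All tested genes were called at 5.72% with no filter, 8.84% with the likelihood ratio test, 3.43% with DESeq2, 1.23% at 0.01, and 1.39%, 11.5% and 13.8% without WT 2, cKO 1 and cKO 2. Interferon-stimulated genes called numbered 4 with no filter, 2 with the likelihood ratio test, 0 at 0.01 and 0 (without WT 2) to 17 (without cKO 2) with a library left out, quiescence genes 2 with no filter, 0 with DESeq2, 0 at 0.01 and 1 to 4 with a library left out (4 without cKO 1), and neighbours 2 with no filter, 0 at 0.01, 0 within 200 kb and 1 to 3 with a library left out (3 without cKO 2). In the edgeR fit 3 interferon-stimulated, 3 quiescence and 2 neighbouring genes (1 within 200 kb) had an unadjusted p under 0.05, as had 2370 of all 12403 (19.1%), and DESeq2 called 1 interferon-stimulated gene and 1 neighbour.

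The replicate numbers were used as a replicate block although nothing says that they pair mice. Same-numbered libraries correlated at 0.0593 in their deviations. Under the block 1165 genes (9.39%), 3 interferon-stimulated genes and 2 quiescence genes were called, and *Slfn8* was called at -1.81.

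The family sums without *Slfn2* were 917 and 933 CPM in WT and 961 and 1226 CPM in cKO. Lengths unique within the genome were not run, because no genome was used here. Summing *Slfn8* with *Slfn9* and the transcript-window lengths were chosen after seeing the data. With 2 libraries per genotype, an exact test over libraries cannot fall below 0.333, and depth leaves *Slfn4* and *Slfn14* at the floor.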
